A study of Homo sapiens with 12 samples.

Results

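The transcripts of 10 epithelial integrin subunit genes were followed through an siRNA knockdown of CEACAM6 in gallbladder cancer cells. They were the α subunit genes ITGA2, ITGA3, ITGA5, ITGA6 and ITGAV and the β subunit genes ITGB1, ITGB4, ITGB5, ITGB6 and ITGB8. The genes were taken by name as 10 of the 60617 genes in the files. ITGA2 and ITGB1 were among them because the study identified their proteins as binding partners of CEACAM6. The rule that names them uses no measured value, but the genes were chosen with earlier results of these data known. Integrins are receptors made of 1 α and 1 β chain that span the plasma membrane and tie the extracellular matrix to the actin or keratin cytoskeleton. In epithelia, α2β1 binds collagen, α3β1 and α6β4 bind laminin, and α5β1 and the αv integrins bind the RGD motif of fibronectin and related ligands. The αvβ6 and αvβ8 integrins also bind latent TGF-β and release it, and α6β4 is the receptor at the core of the hemidesmosome.

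The measurement was RNA-seq of SNU308, an established human gallbladder cancer cell line, so that all samples come from 1 line. Cells carried siRNA at 25 nM for 3 days before total RNA was isolated. The 3 groups of 4 samples received a non-targeting control siRNA (NTC), siCEACAM6#2 or siCEACAM6#3, in cells of wild-type genotype. The labels give Oligofectamine as the transfection reagent and the study's methods give RNAiMAX, and nothing says whether the replicates were separate cultures, so that p-values cover the spread between these samples only.

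The total count per sample lay between 21799476 and 22059456. The target, CEACAM6, stood at 577 ± 40.6 CPM in NTC (counts scaled to library size, SD, n = 4), 328 ± 29.6 with siCEACAM6#2 and 418 ± 22.1 with siCEACAM6#3, and it fell with both siRNAs (limma-voom adjusted p = 2.71e-05 and 0.0151). The knockdown left more CEACAM6 with siCEACAM6#3 than with siCEACAM6#2 (log2 difference 0.355, adjusted p = 0.016). The epithelial markers EPCAM, CDH1, KRT7, KRT8, KRT18 and KRT19 were expressed in every sample, with a summed level of 8210 to 10100 CPM. The leukocyte marker PTPRC and the fibroblast markers DCN and LUM had group means between 0.0112 and 0.269 CPM, and PTPRC reached 0.936 CPM in its highest siCEACAM6#3 sample. Other markers of these lists were higher, with group means of 33.3 to 43 CPM for the leukocyte marker CD68 and 8.89 to 10.1 CPM for the fibroblast marker COL1A1. Over all samples the 5 fibroblast markers summed to 7.62 to 12 CPM and the 4 leukocyte markers to 27.6 to 54.9 CPM. The NTC samples had a sum of 11.9 to 14.1 CPM over the 3 endothelial markers, the siCEACAM6#2 samples 8.62 to 9.97, and the siCEACAM6#3 samples 11 to 14.2. Among them VWF fell with siCEACAM6#2 (log2 fold change -0.44, adjusted p = 0.0419) and CDH5 was higher with siCEACAM6#3 than with siCEACAM6#2 (1.31, adjusted p = 0.016). CDH5 was low, with group means of 0.752 to 1.88 CPM. PECAM1, with group means of 0.293 to 0.635 CPM, went the other way from VWF without being called. It stood at 0.608 with siCEACAM6#2 and 1.03 with siCEACAM6#3 (adjusted p = 0.462 and 0.214). The part of these markers in the results below was not tested. In bulk RNA, fewer cells that express a gene and less RNA per cell cannot be told apart.

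For 8 of the 10 integrin subunit genes the siCEACAM6#3 samples had a larger coefficient of variation than both other groups. This spread was not particular to them. Over all tested genes the median absolute log2 deviation from the other 3 samples was 0.164, 0.164, 0.109 and 0.17 in siCEACAM6#3 replicates 1 to 4. It was 0.091 to 0.096 in NTC and 0.091 to 0.138 with siCEACAM6#2. In the siCEACAM6#3 group replicate 2 had the highest level of the group in 10 of 10 genes, against 27.8% of all tested genes. Replicate 4 had the lowest in 6 of 10, against 28.7% of all tested genes. In the other groups siCEACAM6#2 replicate 1 was lowest in 7 of 10, against 30.6% of all tested genes. NTC replicate 4 and siCEACAM6#2 replicate 3 were each highest in 6 of 10, against 24.1% and 25%. Mitochondrial genes took 12.5% of the counts in siCEACAM6#3 replicate 1 and 15.3%, 14.3% and 14.6% in replicates 2, 3 and 4. They took 11.8% to 13.3% in NTC and siCEACAM6#2. The part of this in the values was not tested. Results that rest on the siCEACAM6#3 samples are given with and without replicate 4 of that group where it decides them.

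The sequences that bring about the knockdown are shown first, since an siRNA can also act on other transcripts through bases 2 to 8 of its guide strand, the seed. The targets are written 5′ to 3′ on the transcript strand as the study's materials give them, with the site that pairs with the seed in capitals.
siCEACAM6#2 target: cagccatgcaatgCCAAATAa
siCEACAM6#3 target: ctcctaatagtcaTACTAGTa
Both lie in exon 6 of 6 of CEACAM6, in the 3′ UTR, at chr19:41771369-41771389 and chr19:41771611-41771631 (GRCh38, plus strand). Neither full target occurred in the canonical transcript of any of the 10 integrin subunit genes. The seed site of siCEACAM6#2 (CCAAATA) was in the 3′ UTR of 0 of 10 subunit genes and in 15.6% of the 13750 tested genes with an annotated 3′ UTR. The seed site of siCEACAM6#3 (TACTAGT) was in 2 of 10, against 6.6% of those genes. These were ITGA6 and ITGB8, shown here with their surroundings and the site in capitals because ITGB8 was the subunit gene whose level was lower with siCEACAM6#3.
ITGA6 site: tcagccaaagaTACTAGTgccaaagcaat
ITGB8 site: ctttatcagaaTACTAGTtttaaaagctg
The ITGA6 site is at chr2:172506323-172506351 and the ITGB8 site at chr7:20410760-20410788 (GRCh38, both on the plus strand). The 3′ UTR of ITGB8 has 5757 bases and that of ITGA6 2391, while the median of all tested genes was 1283, and a longer UTR holds any site more often. A match is a string of letters and does not show that the siRNA acts there.

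The position of each gene was taken from GENCODE on GRCh38. ITGA2 (ENSG00000164171) lies at chr5:52989340-53094779 and ITGB1 (ENSG00000150093) at chr10:32887273-33005792. Of the laminin receptor genes, ITGA3 (ENSG00000005884) lies at chr17:50055968-50090481, ITGA6 (ENSG00000091409) at chr2:172427354-172506459 and ITGB4 (ENSG00000132470) at chr17:75721328-75757818. ITGA5 (ENSG00000161638) lies at chr12:54395261-54419266 and ITGAV (ENSG00000138448) at chr2:186590010-186680901. The β partners of αv, ITGB5 (ENSG00000082781), ITGB6 (ENSG00000115221) and ITGB8 (ENSG00000105855), lie at chr3:124761948-124901418, chr2:160099667-160200313 and chr7:20330702-20415754. All 10 are protein-coding, and all 10 passed the filter on low counts and were tested.

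SNU308 cells had the highest levels for 2 laminin receptor chains, α3 and β4. On the TPM scale, which corrects for transcript length and so lets genes be compared, ITGA3 stood at 306 ± 30.8 in NTC (SD, n = 4) and ITGB4 at 261 ± 23.4. These were followed by ITGB1 at 131 ± 4.79 TPM, ITGB5 at 56.2 ± 5.58, ITGA6 at 45.5 ± 4.54, ITGAV at 35.7 ± 2.16 and ITGA2 at 16.1 ± 0.773. ITGA5 (10.1 ± 1.71 TPM), ITGB6 (7.5 ± 0.258) and ITGB8 (5.64 ± 0.552) were the least expressed. Of the 9 pairs of neighbours in this order, the NTC samples overlapped in 2, ITGA3 with ITGB4 and ITGB5 with ITGA6. ITGA3 made up 71.2% to 76.4% of the summed TPM of the 5 α genes in NTC, and ITGA2 3.49% to 4.2%. With siCEACAM6#3 the share of ITGA2 was 4.6%, 4.63%, 4.75% and 3.31% in replicates 1 to 4. The sample with the smallest ITGA2 share, replicate 4, had the largest ITGA3 share of all 12 samples, 80.8%.

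No integrin subunit gene passed the threshold with siCEACAM6#2. In limma-voom, 0 of 10 had an adjusted p under 0.05, where 1.25% of all 17620 tested genes did. Without adjustment, 1 of 10 (ITGA5) had a p under 0.05, against 13.6% of all genes. EdgeR and DESeq2 also called 0 of 10, the former with 254 genes called in all and the latter with 3.95% of all genes called. A voom fit that weights samples by their quality called ITGA5 (0.207, adjusted p = 0.0491), with 6.36% of all genes called. The 10 log2 fold changes ran from 0.006 to 0.209, with a median of 0.066, and the median of all tested genes was 0.

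With siCEACAM6#3 the subunit genes lay further from NTC, again without passing the threshold. Limma-voom and edgeR called 0 of 10, and limma-voom called 0.0681% of all tested genes. The unadjusted p was under 0.05 for 8 of 10, against 12.5% of all genes, with ITGA6 and ITGB5 above it. DESeq2 called 3 of 10, ITGA2, ITGAV and ITGB6, with 1.72% of all genes called. The fit with sample weights called these 3 and ITGB1, with 2.17% of all genes. Of the 10 log2 fold changes 9 were above 0 and ITGB8 was below it. They ran from -0.235 to 0.405, with a median of 0.19, and the median of all genes was -0.003.

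For the average of both siRNAs versus NTC the count was again 0 of 10 in limma-voom and in edgeR, with 0.227% of all genes called. The unadjusted p was under 0.05 for 6 of 10 and for 12.9% of all genes. DESeq2 called ITGA2 and ITGA5 with 2.63% of all genes called, and the fit with sample weights called these and ITGAV with 5.1%. Both single comparisons use the same NTC samples, so that a like direction in both is not independent evidence.

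Between the siRNAs, limma-voom and edgeR called 0 of 10, where limma-voom called 1.47% of all genes. The unadjusted p was under 0.05 for 5 of 10, against 13.3% of all genes. DESeq2 called ITGA2 and ITGB6, with 4.01% of all genes called, and the fit with sample weights called ITGA2, ITGAV and ITGB6, with 3.18%. The largest differences were those of ITGB6, 0.33, and ITGB8, -0.308.

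The counts depended on 2 siCEACAM6#3 samples. Against NTC, limma-voom called ITGA2 and ITGA3 when siCEACAM6#3 replicate 1 was left out, with 1.44% of all genes called, and ITGA2 and ITGAV when replicate 4 was left out, with 0.263%. Between the siRNAs it called ITGB6 without replicate 1, with 3.64% of all genes, and ITGA2, ITGAV and ITGB6 without replicate 4, with 1.76%.

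**Figure D1:**
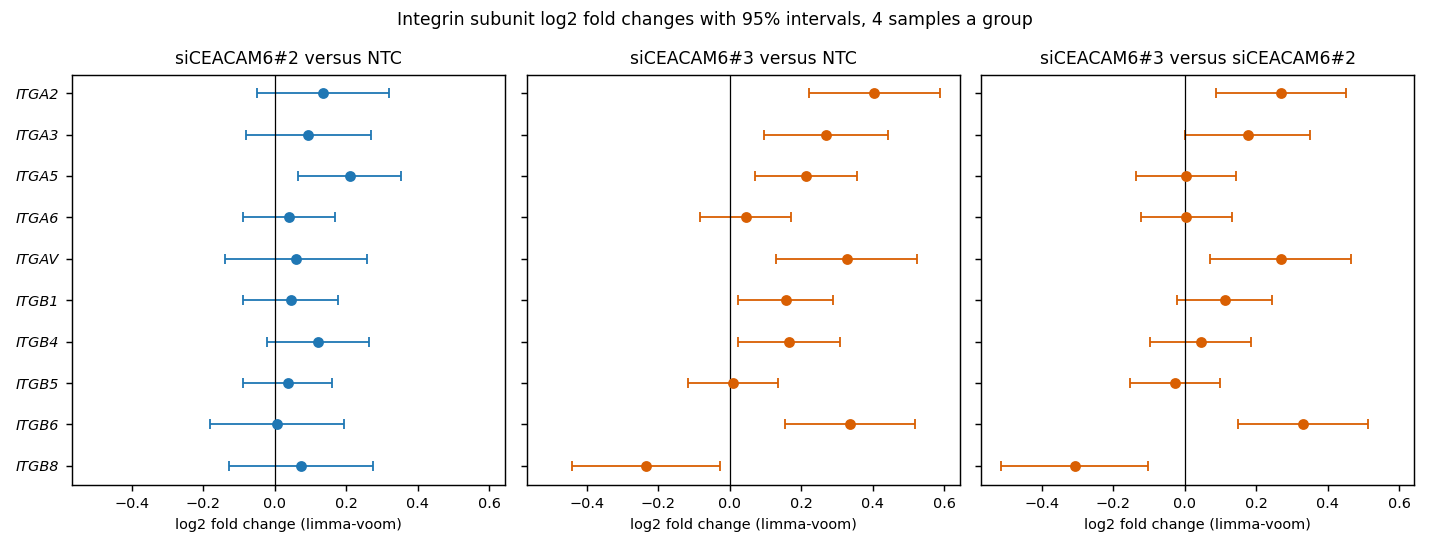
Log2 fold change of each integrin subunit gene (horizontal axis) with its 95% interval from limma-voom, 4 samples a group. The siCEACAM6#2 points lie between 0.006 and 0.209, and the siCEACAM6#3 points between -0.235 for ITGB8 and 0.405 for ITGA2.

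The collagen receptor was compared first, since the study tied both of its chains to CEACAM6. ITGA2, the collagen-binding α2 chain, had 96.9, 98.7, 94.8 and 103 CPM in the NTC samples and 95.9, 106, 118 and 113 CPM with siCEACAM6#2. With siCEACAM6#3 it had 121, 152, 141 and 110 CPM. All 4 siCEACAM6#3 samples were above the highest NTC sample, while siCEACAM6#2 overlapped with NTC. By CPM, 4 of 10 subunit genes did not overlap between siCEACAM6#3 and NTC, namely ITGA2, ITGA5, ITGAV and ITGB6, all of them higher with siCEACAM6#3. Of all genes, 6.27% did not overlap in either direction. On TPM, ITGA5, ITGAV and ITGB6 overlapped between these groups and ITGA2 did not. The log2 fold change of ITGA2 was 0.405 ± 0.086 (SE) with siCEACAM6#3 (adjusted p = 0.109) and 0.135 ± 0.087 with siCEACAM6#2 (adjusted p = 0.546). Without siCEACAM6#3 replicate 4 the former was 0.483 (adjusted p = 0.0255), and without replicate 1 it was 0.446 (adjusted p = 0.0285). Over the 12 fits that each left out 1 sample it ran from 0.331 to 0.483, with ITGA2 called in 2. The value with siCEACAM6#2 was 0.196 without replicate 1 of that group (adjusted p = 0.286).

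ITGB1, the β1 chain that pairs with α2, α3, α5, α6 and αv, varied less. It had 351, 351, 348 and 370 CPM in NTC, 345, 380, 381 and 360 with siCEACAM6#2, and 382, 438, 421 and 348 with siCEACAM6#3. Replicates 1 to 3 of siCEACAM6#3 were above the NTC range and replicate 4 was just below it, so that the groups overlapped. On the log2 scale ITGB1 differed from NTC by 0.157 ± 0.063 with siCEACAM6#3 (adjusted p = 0.325) and 0.045 ± 0.063 with siCEACAM6#2 (adjusted p = 0.825). On log2(TPM + 1) its difference with siCEACAM6#3 was 0.092 (limma-trend adjusted p = 0.641).

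The ratio of the 2 chains within a sample needs no scaling between libraries. The log2 ratio of ITGA2 to ITGB1 counts was -1.86, -1.83, -1.88 and -1.85 in NTC, which is 3.56 to 3.68 ITGB1 counts for each ITGA2 count. The siCEACAM6#2 samples had log2 ratios of -1.85, -1.84, -1.70 and -1.67, and those of siCEACAM6#3 had -1.66, -1.53, -1.57 and -1.66. Each siCEACAM6#3 sample, replicate 4 included, had more ITGA2 relative to ITGB1 than every sample of the other groups, with 2.88 to 3.16 ITGB1 counts for each ITGA2 count. The difference between siCEACAM6#3 and NTC was 0.248 on the log2 scale (two-sided exact permutation test, p = 0.0286, the smallest that 4 samples against 4 allow, and 0.0429 after adjustment over 3 contrasts). That between siCEACAM6#3 and siCEACAM6#2 was 0.158, with the same exact p and adjusted p. The difference between siCEACAM6#2 and NTC, 0.09, did not pass (exact p = 0.114, adjusted p = 0.114), and its samples fell into replicates 1 and 2 within the NTC range and replicates 3 and 4 above it.

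**Figure D2:**
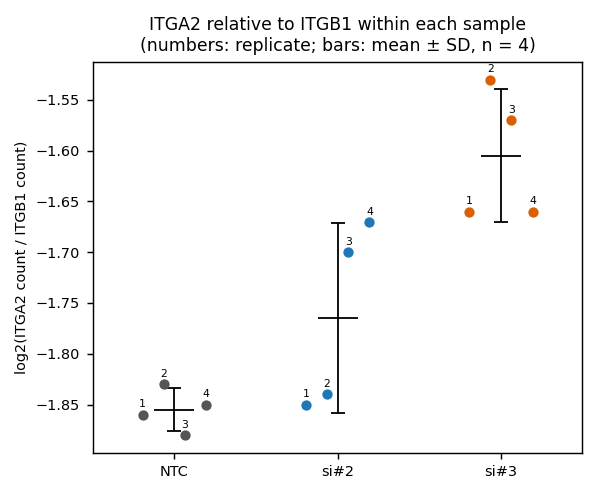
Log2 ratio of the ITGA2 count to the ITGB1 count in each sample (vertical axis) by group, where points are samples numbered by replicate and bars are the mean ± SD of 4. The 4 siCEACAM6#3 samples lie between -1.66 and -1.53, above the NTC samples at -1.88 to -1.83.

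The laminin receptor genes differed among themselves. ITGA3, the α3 chain of the α3β1 laminin receptor, had 838, 867, 977 and 1011 CPM in NTC, 877, 1049, 1046 and 967 with siCEACAM6#2, and 957, 1224, 1072 and 1206 with siCEACAM6#3. The groups overlapped, through siCEACAM6#3 replicate 1. For ITGA3 the log2 fold change with siCEACAM6#3 was 0.269 ± 0.082 (adjusted p = 0.202), and without replicate 1 it was 0.347 (adjusted p = 0.0375). Leaving out 1 sample at a time gave 0.222 to 0.347. ITGB4, the β4 chain of the hemidesmosome, was also overlapping, with log2 fold changes of 0.121 ± 0.067 and 0.166 ± 0.067 for siCEACAM6#2 and siCEACAM6#3 (adjusted p = 0.462 and 0.327). Its samples ran from 568 to 685 CPM (NTC), from 643 to 686 (siCEACAM6#2) and from 634 to 762 (siCEACAM6#3). On log2(TPM + 1) ITGB4 differed from NTC by 0.048 with siCEACAM6#3 (limma-trend adjusted p = 0.843). ITGA6, the α6 partner of β4 and a carrier of a siCEACAM6#3 seed site, was near NTC with both siRNAs. Its level was 182 ± 3.53 CPM in NTC, 187 ± 6.85 after siCEACAM6#2 and 188 ± 17.8 after siCEACAM6#3. The 95% interval of its log2 fold change was -0.089 to 0.167 with siCEACAM6#2 and -0.084 to 0.172 with siCEACAM6#3.

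Among the RGD-binding chains, ITGA5 lay apart from NTC with both siRNAs by CPM, though not on TPM. ITGA5, the α5 chain of the fibronectin receptor, had 25.3, 23.3, 26.6 and 27.2 CPM in NTC. It had 28.2, 30.6, 31.7 and 27.9 CPM with siCEACAM6#2 and 28.0, 30.7, 29.3 and 30.5 with siCEACAM6#3. All 8 siRNA samples were above the 4 NTC samples, which they share as controls, and in the siCEACAM6#2 comparison ITGA5 was the 1 of 10 subunit genes without overlap, where 10.8% of all genes did not overlap. On the log2 scale ITGA5 differed from NTC by 0.209 ± 0.067 with siCEACAM6#2 (adjusted p = 0.158) and by 0.214 ± 0.067 with siCEACAM6#3 (adjusted p = 0.216). On log2(TPM + 1) these values were 0.213 (adjusted p = 0.473) and 0.025 (adjusted p = 0.941), so that the difference with siCEACAM6#3 was not seen per length. The siCEACAM6#2 samples, at 11.11 to 12.65 TPM, also overlapped with NTC, at 8.482 to 12.47 TPM. The counts per TPM of ITGA5, which follow the transcript length that was estimated, ran from 0.812 to 1.17 times their NTC mean within NTC and were 1.11 ± 0.09 times it with siCEACAM6#3 and 0.968 ± 0.015 times with siCEACAM6#2. Their part in the difference was not tested.

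ITGAV, the αv chain that pairs with β1, β5, β6 and β8, had 189, 192, 192 and 190 CPM in NTC, a spread of 0.804% of the mean. With siCEACAM6#2 it had 171, 189, 221 and 218 CPM and with siCEACAM6#3 234, 270, 265 and 195. By CPM the siCEACAM6#3 samples were all above NTC, replicate 4 by the least, and the siCEACAM6#2 samples lay on both sides of it. On TPM siCEACAM6#3 replicate 4, at 33.39, was below every NTC sample (33.88 to 38.8). On log2(TPM + 1) ITGAV differed from NTC by 0.252 with siCEACAM6#3 (limma-trend adjusted p = 0.387). With siCEACAM6#3 the log2 fold change of ITGAV was 0.328 ± 0.093 (adjusted p = 0.179), and 0.424 without replicate 4 (adjusted p = 0.038). Leaving out 1 sample at a time gave 0.27 to 0.424. With siCEACAM6#2 the log2 fold change of ITGAV was 0.059 ± 0.094 (adjusted p = 0.85).

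The β partners of αv did not share a direction. ITGB5, the β5 chain, stayed within 93.5 to 110 CPM in all 12 samples, and its 95% interval with siCEACAM6#3 was -0.117 to 0.135 on the log2 scale. ITGB6, the epithelial β6 chain, had 18.04, 21.77, 21.75 and 21.49 CPM in NTC, 18.62, 21.64, 22.43 and 20.64 with siCEACAM6#2, and 25.03, 28.95, 27.63 and 23.32 with siCEACAM6#3. By CPM every siCEACAM6#3 sample was above all 8 others. On TPM siCEACAM6#3 replicate 4, at 7.581, was below NTC replicates 2 and 4 (7.708 and 7.733) and siCEACAM6#2 replicate 3 (7.997). On log2(TPM + 1) ITGB6 differed by 0.185 from NTC (limma-trend adjusted p = 0.437) and by 0.255 from siCEACAM6#2 (adjusted p = 0.297). For ITGB6 the log2 fold change was 0.337 ± 0.086 versus NTC (adjusted p = 0.147) and 0.33 ± 0.086 versus siCEACAM6#2 (adjusted p = 0.071, and 0.0352 without siCEACAM6#3 replicate 4). Leaving out 1 sample at a time gave 0.274 to 0.39 versus NTC and 0.277 to 0.382 versus siCEACAM6#2. With siCEACAM6#2 the log2 fold change of ITGB6 versus NTC was 0.006 ± 0.088.

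ITGB8, the β8 chain, was the subunit gene with a lower level with siCEACAM6#3. It had 38.8, 39.9, 34.0 and 36.1 CPM in NTC, 36.7, 37.1, 38.8 and 44.1 with siCEACAM6#2, and 32.9, 35.2, 34.5 and 24.9 with siCEACAM6#3. All siCEACAM6#3 samples were below all siCEACAM6#2 samples, and they overlapped with NTC. Between the siRNAs 2 of 10 subunit genes did not overlap by CPM, ITGB6 and ITGB8, where 6.68% of all genes did not. Versus NTC the log2 fold change of ITGB8 was -0.235 ± 0.098 (adjusted p = 0.341), and -0.123 without siCEACAM6#3 replicate 4 (adjusted p = 0.438), and between the siRNAs it was -0.308, and -0.197 without that sample (adjusted p = 0.145 and 0.218). The site for the siCEACAM6#3 seed in ITGB8 was shown above, and its part in this value was not tested.

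Since β6 and β8 both pair with αv and both act on latent TGF-β, their counts were set against each other within each sample, a ratio chosen after the values were seen and so given without a test. There were 0.46, 0.55, 0.64 and 0.6 ITGB6 counts per ITGB8 count in NTC. The siCEACAM6#2 samples had 0.51, 0.58, 0.58 and 0.47, and the siCEACAM6#3 samples 0.76, 0.82, 0.8 and 0.94. The siCEACAM6#3 samples lay above both other groups, and replicate 4, lowest in the level of each gene, was highest in their ratio.

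**Figure D3:**
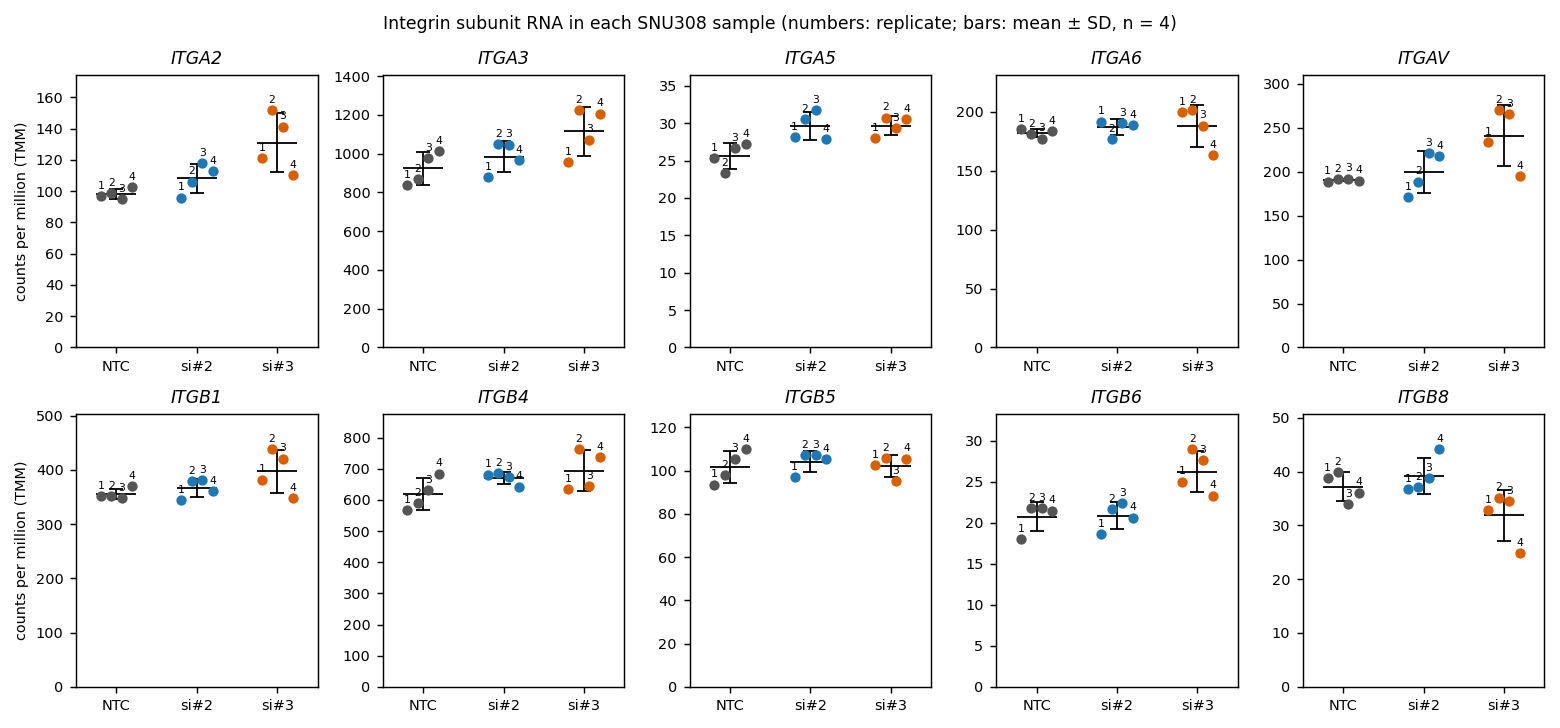
Level of each integrin subunit gene in CPM (vertical axis, from 0) in the 12 samples by group, with si#2 and si#3 for siCEACAM6#2 and siCEACAM6#3. Points are samples numbered by replicate, and bars are the mean ± SD of 4. ITGB6 lies at 23.32 to 28.95 with siCEACAM6#3 and at 18.04 to 22.43 in the other groups.

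In siCEACAM6#3 replicate 4 the 10 genes differed in direction along their base composition. The GC content of the canonical transcripts was 38.3% (ITGAV), 38.7% (ITGB8), 39.5% (ITGB1), 40.1% (ITGA2), 40.2% (ITGB6) and 42.5% (ITGA6) in 6 genes. It was 54.6% (ITGB5), 58.0% (ITGA5), 60.9% (ITGA3) and 63.6% (ITGB4) in the other 4, and the median of the tested genes was 48.9%. In siCEACAM6#3 replicate 4, each of the 6 genes of low GC content was below the other 3 samples of its group. Its difference from their mean was between -0.46 (ITGB8) and -0.22 (ITGB6) in log2 CPM. Each of the 4 genes of high GC content was above that mean, by 0.06 to 0.16.

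The same pattern was present across the transcriptome. In siCEACAM6#3 replicate 4 the 4393 tested genes with the lowest GC content (up to 42.2%) had a median deviation of -0.128 from the group mean on the log2 scale, and the 4390 with the highest (from 56.9%) had 0.124. The difference between these sets was 0.252 in replicate 4, -0.133, 0.018 and -0.137 in replicates 1, 2 and 3, and between -0.08 and 0.069 in the NTC and siCEACAM6#2 samples. Between siCEACAM6#3 and NTC the medians of these sets were 0.023 and -0.025, while those of the integrin genes were 0.242 for the 6 of low and 0.19 for the 4 of high GC content. With the trend on GC content removed within each sample, an alternative added after seeing the data, ITGA2 with siCEACAM6#3 was at 0.384 (adjusted p = 0.0633) and ITGB8 at -0.261 (adjusted p = 0.165). In that fit ITGB6 (0.324, adjusted p = 0.0493) and ITGB8 (-0.32, adjusted p = 0.0386) passed the threshold between the siRNAs, with 2.52% of all genes called.

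**Figure D4:**
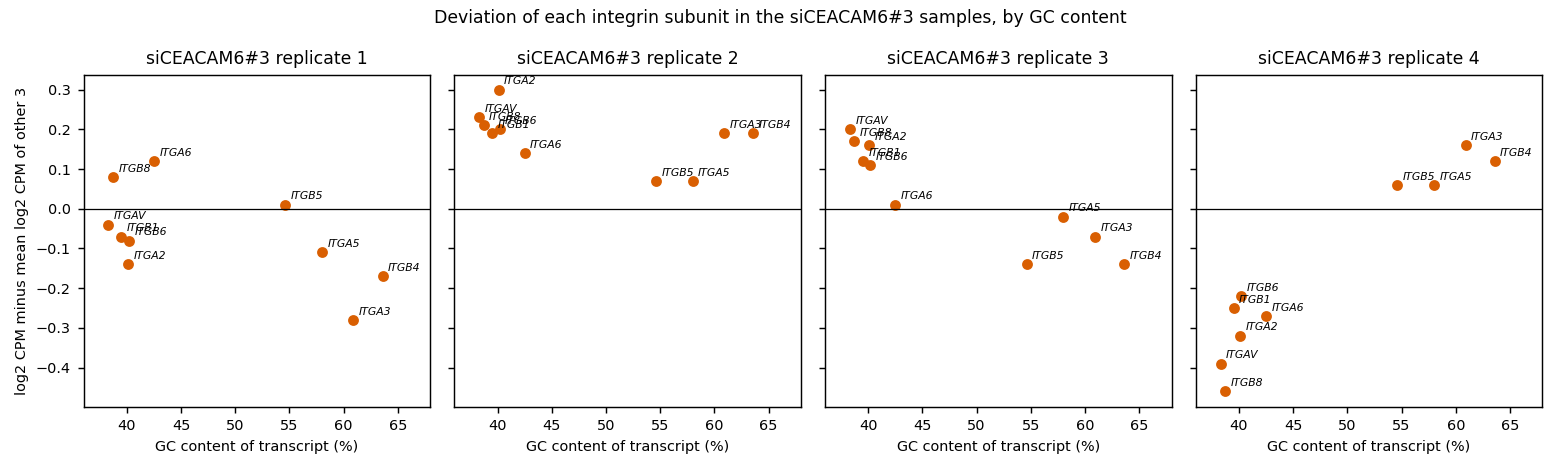
Deviation of each integrin subunit gene in 1 siCEACAM6#3 sample from the mean of the other 3 samples of the group, in log2 CPM (vertical axis), against the GC content of its transcript in percent (horizontal axis), 1 panel a sample. In replicate 4 the 6 genes between 38.3% and 42.5% lie at -0.46 to -0.22, and the 4 genes above 54% at 0.06 to 0.16.

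Over the 12 samples ITGA2, ITGAV, ITGB1 and ITGB6 varied alike. Pearson's r of log2 CPM was 0.956 between ITGA2 and ITGAV, 0.93 between ITGA2 and ITGB1, 0.889 between ITGA2 and ITGB6 and 0.887 between ITGAV and ITGB1. ITGB6 had an r of 0.871 with ITGAV and 0.843 with ITGB1. Among the other pairs r was 0.847 between ITGA3 and ITGB4, 0.787 between ITGA5 and ITGB4, and -0.567 between ITGA3 and ITGB8. These are descriptions over 12 points that share libraries, groups, depth and the base composition pattern above. Among 9889 genes with a mean of at least 10 CPM, those most like ITGA2 were BAZ2B (0.968), FAM171B (0.962), CALU (0.962), ITGAV (0.956) and NIPAL2 (0.953). Those most like ITGB1 were SEC24D (0.96), TMEM161B (0.952), ZFC3H1 (0.95), BAZ2B (0.946) and MOB1B (0.945).

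The promoters of the subunit genes were compared because ITGA2, ITGAV, ITGB1 and ITGB6 moved together across samples. RefSeq starts were found for 8 of the 10 genes (not ITGA3 and ITGB4), with 13 windows in all, and the 200 bases from 250 to 51 before the start are shown for ITGA2 and ITGB6, a pair chosen after the values were seen, whose levels had an r of 0.889 and whose windows had the highest and the lowest GC content of the 13. GC boxes (GGGCGG, or CCGCCC for the other strand) are in capitals.
ITGA2 promoter: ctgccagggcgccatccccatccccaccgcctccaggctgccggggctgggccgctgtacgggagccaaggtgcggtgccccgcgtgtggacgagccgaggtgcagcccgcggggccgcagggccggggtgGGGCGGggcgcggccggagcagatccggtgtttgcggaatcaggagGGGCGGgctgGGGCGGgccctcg
ITGB6 promoter: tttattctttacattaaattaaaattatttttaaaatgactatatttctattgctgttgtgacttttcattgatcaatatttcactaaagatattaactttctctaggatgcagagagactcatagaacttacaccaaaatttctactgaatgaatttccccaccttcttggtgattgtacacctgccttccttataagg
The ITGA2 window is chr5:52989102-52989301 on the plus strand and the ITGB6 window chr2:160200323-160200522 on the minus strand (RefSeq, GRCh38.p14). The former had a GC content of 78.5%, 23 CpG dinucleotides and 3 GC boxes, and the latter 29.5%, 0 and 0, while the median GC content was 63% over the 17342 windows of tested genes. A GC box was in 7 of the 13 windows of the subunit genes and in 50.2% of all windows. The AP-1 motif (TGACTCA or TGAGTCA) was in 0 of 13 and 2.4%, the TATA box (TATAAA or TTTATA) in 1 of 13 (ITGB1) and 4.4%, and the CCAAT box (CCAAT or ATTGG) in 1 of 13 (ITGB8) and 28.3%.

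Outside the 10 genes, the integrin ligands, the hemidesmosome and the proteins that tie integrins to actin were described as lists. Of 20 ligand genes 18 were tested. LAMA3, the laminin α3 chain of a ligand of α3β1 and α6β4, named here after its values were seen, stood at 0.195 ± 0.087 with siCEACAM6#2 (adjusted p = 0.341) and 0.375 ± 0.087 with siCEACAM6#3 (adjusted p = 0.127). LAMB3, the laminin β3 chain, with 263 ± 9.89 TPM in NTC where LAMA3 had 25.7 ± 3.71, stood at 0.128 ± 0.056 and 0.069 ± 0.056 on the log2 scale. Over the ligand genes the median was 0.132 and 0.122 for siCEACAM6#2 and siCEACAM6#3, in that order and on the log2 scale, beside 0 and -0.003 for all genes. Between the siRNAs, 1 ligand gene was higher with siCEACAM6#3, NPNT, which codes for nephronectin, a matrix ligand of α8β1 (0.27 ± 0.058, adjusted p = 0.0285). The gene for the α8 chain, ITGA8, had group means of 0.0228 to 0.149 CPM and did not pass the low-count filter. That call of NPNT was lost without siCEACAM6#3 replicate 2 or 3, or any 1 of the 4 siCEACAM6#2 samples (adjusted p = 0.0519 to 0.0894).

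Of 7 hemidesmosome and tetraspanin genes, all tested, COL17A1 was the 1 that rose with siCEACAM6#2. It codes for collagen XVII, the transmembrane collagen of the hemidesmosome that binds β4. COL17A1 had 85.8, 86.7, 98.8 and 92.6 CPM in NTC, 128, 130, 142 and 123 with siCEACAM6#2, and 116, 121, 106 and 112 with siCEACAM6#3. By CPM all siRNA samples were above all NTC samples. On TPM the lowest siCEACAM6#3 sample, at 27.8, was below the highest NTC sample, at 28.8, while siCEACAM6#2 stayed above NTC at 37.8 to 41.2. The log2 fold change was 0.525 ± 0.061 with siCEACAM6#2 (adjusted p = 0.00124), 0.424 ± 0.054 for the average of both (adjusted p = 0.00349) and 0.323 with siCEACAM6#3 (adjusted p = 0.0793). DST, a plakin that links hemidesmosomes to keratin, named here after its values were seen, stood at 0.393 ± 0.114 and 0.35 ± 0.114 (adjusted p = 0.114 and 0.234). The tetraspanin gene CD82 was higher with siCEACAM6#3 than with siCEACAM6#2 (0.255 ± 0.053, adjusted p = 0.0247), a call lost without siCEACAM6#3 replicate 3 or any 1 of the 4 siCEACAM6#2 samples (adjusted p = 0.0624 to 0.0769). CD9, the gene of the list with the highest TPM, stood at -0.012 and 0.065 versus NTC. The median of the list was 0.147 for siCEACAM6#2 and 0.065 for siCEACAM6#3 on the log2 scale.

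Of 21 genes for integrin activators and actin linkers, all tested, 0 rose and 1 fell with siCEACAM6#2, and 0 were called with siCEACAM6#3 in limma-voom, where 4 had an unadjusted p under 0.05, as did 12.5% of all genes. TNS1, a tensin that ties integrins to actin, had 24.06, 22.3, 19.77 and 21.08 CPM in NTC, and 17.35, 13.34, 14.91 and 17.42 with siCEACAM6#2, and the groups did not overlap. It fell by 0.473 on the log2 scale with siCEACAM6#2 (adjusted p = 0.0178), where the adjusted p was 0.0661 to 0.085 when either NTC replicate 1 or 2, or siCEACAM6#2 replicate 2 or 3, was left out. The call was also lost on both TPM scales (-0.407 and -0.524, adjusted p = 0.255 and 0.264), where 5 and 6 genes were called in all. RSU1, a partner of the ILK complex, was higher with siCEACAM6#3 than with siCEACAM6#2 (0.26 ± 0.06, adjusted p = 0.0376), a call that stood without siCEACAM6#3 replicate 1 or 2 and was lost without each of the other 10 samples (adjusted p = 0.0576 to 0.136). The median of the list was 0.032 with siCEACAM6#2 and 0.01 with siCEACAM6#3. The most abundant genes of the list by TPM, FLNA, ACTN4, ZYX and ACTN1, were not called in any contrast. Of 16 other integrin subunit genes 9 passed the low-count filter, and 0 of these 9 were called in any contrast, with 2 and 1 at an unadjusted p under 0.05 for siCEACAM6#2 and siCEACAM6#3, where 13.6% and 12.5% of all genes were.

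**Figure D5:**
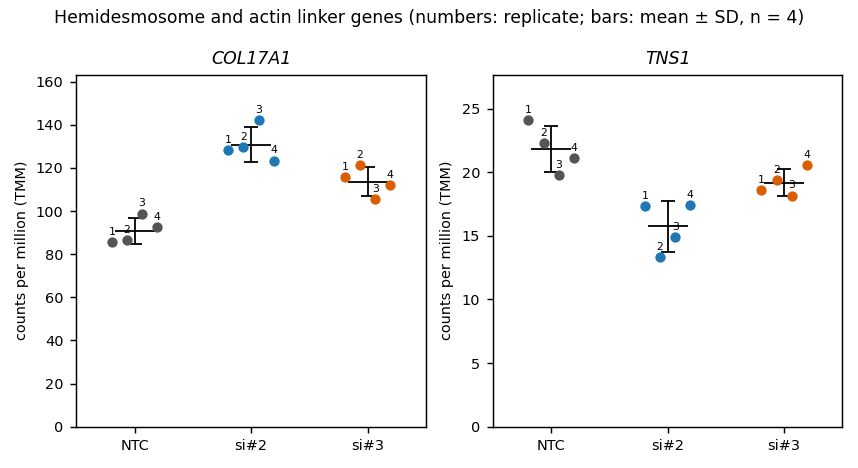
Level of COL17A1 and TNS1 in CPM (vertical axis, from 0) by group, with si#2 and si#3 for siCEACAM6#2 and siCEACAM6#3. Points are samples numbered by replicate and bars are the mean ± SD of 4. With siCEACAM6#2, COL17A1 lies at 123 to 142 and TNS1 at 13.34 to 17.42, and in NTC they lie at 85.8 to 98.8 and at 19.77 to 24.06.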

How the data were processed

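Per the labels and the study's methods, the authors trimmed reads with Trim Galore 0.6.4, quantified them with kallisto (version 0.4.6 in the submitters' processing notes) against GENCODE transcripts on GRCh38.p13, and deposited estimated counts per gene and TPM per gene, 1 file of each per sample. Paired-end reads stand in the labels and single-end reads in the methods. Kallisto divides shared reads by estimation. Of the deposited estimated counts above 0, 69.3% were not whole.

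Estimated counts were rounded and fitted by limma-voom (limma 3.58.1, edgeR 4.0.16, under R 4.3.3): filterByExpr by group (17620 of 60617 genes), TMM scaling, voom, and 1 model of 3 groups without covariates. A gene was called at a Benjamini-Hochberg adjusted p under 0.05 over all tested genes of a contrast. CPM used TMM-scaled library sizes. DESeq2 1.42.0, edgeR's quasi-likelihood test, other scalings, filters, TPM with pseudocounts of 1 and 0.1, sample weights, left-out samples and a replicate block were alternatives. The ITGA2 to ITGB1 ratio was tested by exact permutation (scipy 1.17.1). The fits were tested on simulated data. All 10 integrin genes were named, and of each list every called gene and up to 4 of the most abundant. 1 item of the ligand list is not reported here. The members and lists were chosen with earlier results of these data known. Replicate numbers were not used as pairs in the main fit, and whether they pair the samples is not settled. Over 12 same-numbered pairs r ran from -0.054 to 0.185, and 5 samples correlated best with their own number. The 10 genes had between 404 and 26002 counts a sample.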

Additional observations from a re-analysis of the deposited data

Results flagged for a closer look

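Of 33 groups of 4 values checked, 10 genes and the ITGA2 to ITGB1 ratio in 3 groups, 2 held a sample far from the other 3 by Dixon's ratio of gap to range at its 95% critical value, which chance alone exceeds in about 5% of groups. ITGB1 was highest in NTC replicate 4 at 369.5 CPM, with a ratio of 0.871. ITGB6 was lowest in NTC replicate 1 at 18.04 CPM, with a ratio of 0.925.

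The 2 siRNAs differed by a test of the difference itself, limma-voom with Benjamini-Hochberg adjustment, for 3 genes around the integrins. With siCEACAM6#3 relative to siCEACAM6#2, NPNT was higher by 0.27 on the log2 scale, CD82 by 0.255 and RSU1 by 0.26. They were 1 gene each of the lists of 18 ligand, 7 hemidesmosome and tetraspanin, and 21 activator and linker genes tested. Of all genes, 1.47% were called in this contrast. Each of the 3 calls was lost on both TPM scales and in the fit of only the groups compared. On the TPM scales the differences were 0.248 and 0.255 for NPNT, 0.129 and 0.131 for CD82, and 0.263 and 0.271 for RSU1. None of the 10 integrin subunit genes passed that test in limma-voom, while 5 of 10 had an unadjusted p under 0.05 and DESeq2 called 2.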

How the results depend on the processing

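The count of called integrin subunit genes was 0 in each of the 4 contrasts. It was also 0 in each with edgeR, other scalings, other filters, both TPM pseudocounts and a fit of only the groups compared, which gives no value for the average of both siRNAs. For siCEACAM6#2 versus NTC sample weights gave 1. For siCEACAM6#3 versus NTC DESeq2 gave 3, sample weights 4 and the replicate block 1. For the average of both siRNAs DESeq2 gave 2 and sample weights 3. For siCEACAM6#3 versus siCEACAM6#2 DESeq2 gave 2, sample weights 3, the replicate block 1 and the correction for GC content, added after seeing the data, 2. The replicate block called 0.494% of all genes for siCEACAM6#3 versus NTC and 1.98% between the siRNAs. The cause was not tested. Leaving out 1 sample gave 0 to 0, 0 to 2, 0 to 1 and 0 to 3 in the same order of contrasts, and every count above 0 came without siCEACAM6#3 replicate 1 or replicate 4.

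Under the replicate block ITGA2 with siCEACAM6#3 had 0.406 (adjusted p = 0.0449) and ITGB6 between the siRNAs 0.33 (adjusted p = 0.0268). Of 12 same-numbered pairs 2 had r over 0.1, and 5 samples correlated best with their own number. With the numbers as pairs, the ITGA2 to ITGB1 ratio kept its differences of 0.248 versus NTC and 0.158 between the siRNAs, but 4 pairs allow no exact p under 0.125 (adjusted 0.188), so that losing the call says nothing of stability. On TPM these differences were 0.276 and 0.176, and leaving out 1 sample gave 0.222 to 0.267 and 0.131 to 0.188, and 0.06 to 0.117 for siCEACAM6#2 versus NTC.

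Signs of uncalled fold changes turned under some alternatives for ITGB5 and ITGB6 with siCEACAM6#2, for ITGA6 and ITGB5 with siCEACAM6#3, and for ITGA5, ITGA6, ITGB4 and ITGB5 between the siRNAs. Over all genes the alternatives called 5 to 1120 genes for siCEACAM6#2, 4 to 382 for siCEACAM6#3, 2 to 899 for the average and 49 to 560 between the siRNAs, where the report has 221, 12, 40 and 259. Leaving out 1 sample gave 49 to 364, 2 to 258, 3 to 204 and 83 to 651. COL17A1 lost its call for the average of both siRNAs on both TPM scales (adjusted p = 0.0895 and 0.099). TNS1 with siCEACAM6#2, and NPNT, CD82 and RSU1 between the siRNAs, lost their calls on both TPM scales. NPNT, CD82 and RSU1 also lost theirs in the fit of only the groups compared (adjusted p = 0.101, 0.092 and 0.15), NPNT and RSU1 with scaling by library size only (0.0538 and 0.0721), and RSU1 without the low-count filter (0.0956). With 4 samples a group and standard errors of 0.059 to 0.098 in the comparisons of each siRNA with NTC, no log2 difference of the 10 genes up to 0.405 was called by limma-voom.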

Other observations

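The summed TPM of the 10 integrin subunit genes was 875 ± 51 in NTC (SD, n = 4), 910 ± 26 with siCEACAM6#2 and 964 ± 51.6 with siCEACAM6#3. The 5 α genes alone summed to 414 ± 26.5, 434 ± 27.1 and 485 ± 37.7 TPM, and the 5 β genes to 462 ± 25.9, 476 ± 2.53 and 479 ± 17.6. Most of the difference in the α sum lay in ITGA3, at 306 ± 30.8 TPM in NTC and 366 ± 44.6 with siCEACAM6#3. These sums were not tested.

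The spread between replicates was itself unlike between groups, as it was over all tested genes. ITGAV had a coefficient of variation of 0.804% in NTC, 12.1% with siCEACAM6#2 and 14.3% with siCEACAM6#3, and ITGA2 had 3.37%, 8.74% and 14.4%. ITGB5 had 7.2%, 4.62% and 4.94%. The number of counts per TPM, which follows the estimated transcript length, was also less even for ITGB4 with siCEACAM6#3, at 0.964 to 1.18 times the NTC mean.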
